A study of Homo sapiens with 15 samples.

Results

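The ERBB family of receptor tyrosine kinases and its ligands were followed in a pair of human cell lines. CAL51 comes from a breast cancer without hormone receptors or HER2 amplification (triple-negative), and CALDOX is its doxorubicin-resistant derivative. Members were the receptors EGFR, ERBB2 and ERBB3 and the ligands AREG, EREG, HBEGF, TGFA and BTC. They were found as the Affymetrix probe sets annotated with that gene symbol and no other. This gave 28 of the 54613 probe sets tested, for 7 of the 8 genes: 9 for EGFR, 3 for ERBB2, 5 for ERBB3, 2 for EREG, 4 for HBEGF, 3 for TGFA and 2 for BTC. AREG, which encodes amphiregulin, had 0 such probe sets and was not analysed here. Each of the 5 groups held 3 arrays, 15 in all, hybridized with RNA from separate cultures. For CAL51 these were untreated cells and cells given 0.4 µM doxorubicin for 24 h or for 48 h, and for CALDOX untreated cells and cells given 4 µM for 24 h. CALDOX was selected in 0.4 µM doxorubicin and kept in the drug, with the unit of the maintenance dose unclear in the labels, and the treated cultures had first been passaged 3 times without drug. Whether the untreated CALDOX cultures had also been passaged without drug is not stated in the labels, nor is whether CALDOX is 1 clone. The dose given to CALDOX was not the dose given to CAL51, so dose and line cannot be told apart in a comparison of their responses.

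Ligands of the EGF family are made as membrane-bound precursors, are released by ADAM metalloproteases, and bind the extracellular part of EGFR or of its relatives. Binding brings receptors together in pairs, and the kinase domains then phosphorylate the receptor tails, which recruit adaptors of the RAS-ERK and PI3K-AKT pathways. ERBB2 has no known ligand and serves as a partner, and ERBB3 has little kinase activity of its own but is a strong docking receptor for PI3K. Many triple-negative breast tumours express EGFR and lack amplification of ERBB2, the gene for HER2.

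Values were log2 intensities, and every fold change compares a probe set with itself across arrays, since probes differ in brightness. A probe set was called changed when its adjusted p was under 0.05, from a limma fit to all 15 arrays with Benjamini-Hochberg adjustment over all 54613 probe sets of the comparison. Below, ± after a log2 fold change is the standard error of that fit with n = 3 arrays in each group, and ± after a level is the SD over 3 arrays. Arrays of a group correlated at 0.993 to 0.998, and arrays of different groups at 0.979 to 0.996. CDKN1A, the p21 gene induced by DNA damage, rose by 1.98 ± 0.07 after 24 h in CAL51 and by 1.11 ± 0.07 in CALDOX, and it was 1.35 ± 0.07 higher in untreated CALDOX than in untreated CAL51. MDM2, another p53 target, rose by 1.26 ± 0.10 and 0.64 ± 0.10 in those responses, and TOP2A, the drug's target enzyme, was lower in untreated CALDOX by -0.97 ± 0.08. ABCB1, the P-glycoprotein pump, was not called in any comparison, and the blood cell and endothelial marker lists held 0 called genes in the comparison of the untreated lines. There, 23.7% of all genes were called, 13.1% higher and 10.6% lower. Of 6 epithelial markers 5 were called, 2 higher and 3 lower, with KRT19 higher by 4.76 ± 0.08 and CDH1 at -1.35 ± 0.15. Of 7 fibroblast markers 2 were lower, COL1A2 by -2.36 ± 0.06 and PDGFRB by -1.26 ± 0.10. Of 4 mesenchymal markers 1 was higher and 2 were lower. FN1 read 11.37 in untreated CAL51 and 13.43 in untreated CALDOX, and VIM 12.58 and 10.86. The hormone receptor genes ESR1 and PGR were not called in any comparison on their brightest probe sets, the only ones examined. The part of these line differences in the results below was not tested. RNA was taken from whole cultures, in which fewer expressing cells and less RNA in each cell cannot be told apart.

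The promoters of the receptor that was lower in CALDOX and of the ligand that was higher in treated CALDOX are shown because these genes had the largest fall and the largest rise among the members. RefSeq windows on GRCh38.p14 run from 250 bases before to 50 bases after an annotated start, and 7 of the 8 members matched, with 9 starts. ERBB3 had no entry. Capitals mark the motifs searched on both strands: the TATA box as TATAAA, the CCAAT box as CCAAT, the GC box of SP1 as GGGCGG and the AP-1 site as TGANTCA. All sequences read 5′ to 3′ on the plus strand, which is the coding strand of both genes.
EGFR, first start, chr7:55018767-55019066: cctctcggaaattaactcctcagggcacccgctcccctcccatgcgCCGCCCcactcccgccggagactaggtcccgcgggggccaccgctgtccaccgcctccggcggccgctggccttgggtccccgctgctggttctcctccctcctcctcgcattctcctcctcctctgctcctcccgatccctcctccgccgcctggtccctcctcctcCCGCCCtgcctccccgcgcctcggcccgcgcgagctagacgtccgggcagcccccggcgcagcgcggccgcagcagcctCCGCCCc
EGFR, second start, chr7:55109589-55109888: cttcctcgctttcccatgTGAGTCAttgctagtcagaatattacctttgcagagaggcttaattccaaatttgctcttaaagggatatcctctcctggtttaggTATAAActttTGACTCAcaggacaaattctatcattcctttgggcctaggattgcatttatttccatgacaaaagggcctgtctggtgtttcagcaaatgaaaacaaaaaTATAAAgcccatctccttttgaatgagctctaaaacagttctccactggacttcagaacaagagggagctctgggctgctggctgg
EREG, chr4:74364895-74365194: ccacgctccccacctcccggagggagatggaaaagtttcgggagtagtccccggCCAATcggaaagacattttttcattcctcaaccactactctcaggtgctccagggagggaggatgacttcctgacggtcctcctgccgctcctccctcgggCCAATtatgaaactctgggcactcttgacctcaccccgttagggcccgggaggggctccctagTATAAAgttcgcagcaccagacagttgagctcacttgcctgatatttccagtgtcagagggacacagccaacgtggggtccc
The first EGFR start had 3 GC boxes, no TATA box and a GC content of 75.3%. The second, inside the gene, had 2 TATA box and 2 AP-1 matches and a GC content of 42.0%. The EREG window had 1 TATA box and 2 CCAAT box matches, and a GC content of 57.7%. Of 35116 promoter windows of 300 bases, 11.5% held the TATA box, 34.6% the CCAAT box, 45.0% the GC box and 7.71% the AP-1 site. The matches describe the letters only, and the arrays measured no binding at these sites.

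EGFR, the receptor for EGF, TGFA and most of the ligands studied, was lower in untreated CALDOX than in untreated CAL51 on 3 of its 9 probe sets. On 201983_s_at the CAL51 arrays read 9.07, 9.22 and 9.10 untreated, 9.12, 9.30 and 9.19 after 24 h, and 9.17, 9.13 and 9.25 after 48 h. The CALDOX arrays read 8.11, 8.13 and 8.05 untreated and 8.17, 8.34 and 8.29 after 24 h. All 6 CALDOX arrays were below all 9 CAL51 arrays, and within CAL51 the 3 groups overlapped. The change was -1.04 ± 0.07 (adjusted p = 1e-08, limma), which is 2.05-fold lower. Between the treated lines it was -0.94 ± 0.07 (adjusted p = 3.6e-08, limma), a comparison added after the data were seen. Its group means came from other arrays than those of the untreated comparison. Both comparisons took their standard error from the same fit to all arrays, so the tests are not independent.

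The second probe set, 224999_at, read 8.93, 9.08 and 8.95 in untreated CAL51 and 8.08, 8.20 and 8.13 in untreated CALDOX. It read 9.14, 9.05 and 9.08 in CAL51 at 24 h, 8.87, 9.14 and 9.14 at 48 h, and 8.46, 8.41 and 8.49 in treated CALDOX. Every CALDOX array was below every CAL51 array, with the treated CALDOX arrays between the untreated CALDOX arrays and CAL51. EGFR on this probe set was lower by -0.86 ± 0.08 in untreated CALDOX (adjusted p = 2.9e-07, limma) and by -0.64 ± 0.08 between the treated lines (adjusted p = 8.9e-06, limma). It rose by 0.32 ± 0.08 in CALDOX at 24 h (adjusted p = 0.02, limma), a call that ended when either of the untreated CALDOX replicates 1 and 3 or the treated CALDOX replicates 1 and 3 was left out (adjusted p up to 0.087). The other reading of that response, 201983_s_at, was 0.17 ± 0.07 and not called (adjusted p = 0.25, limma).

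The third called probe set, 211607_x_at, differed by -0.29 ± 0.09 (adjusted p = 0.024, limma), and it lost the call when untreated CAL51 replicate 2 or untreated CALDOX replicate 2 or 3 was left out, or when only the arrays compared were fitted, with adjusted p up to 0.14. Another pair, 210984_x_at and 201984_s_at, read -0.27 and -0.23 in untreated CALDOX and missed the threshold (adjusted p = 0.075 and 0.11). The brightest EGFR probe set, 1565483_at, was not called, at -0.29 ± 0.30 with a 95% interval of -0.91 to 0.34. Its arrays spread from 8.36 to 10.20, and within CAL51 at 24 h they read 9.56, 10.20 and 8.83, an SD of 0.68. The same spread appeared on 1565484_x_at, which correlated with it at 0.95 over the 15 arrays. Across those arrays 201983_s_at correlated with 224999_at at 0.96 and with 1565483_at at 0.11. These correlations share the arrays and the 5 group levels, and are a description. With doxorubicin no EGFR probe set was called in CAL51: 0 of 9 at 24 h (lowest adjusted p = 0.54, limma) and 0 at 48 h (lowest adjusted p = 0.11, limma). For 48 h over 24 h, 0 were called (lowest adjusted p = 0.088, limma). The 95% intervals over the 9 reached from -0.47 to 0.79 at 24 h and from -1.25 to 0.25 at 48 h, so changes were not excluded.

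**Figure D1:**
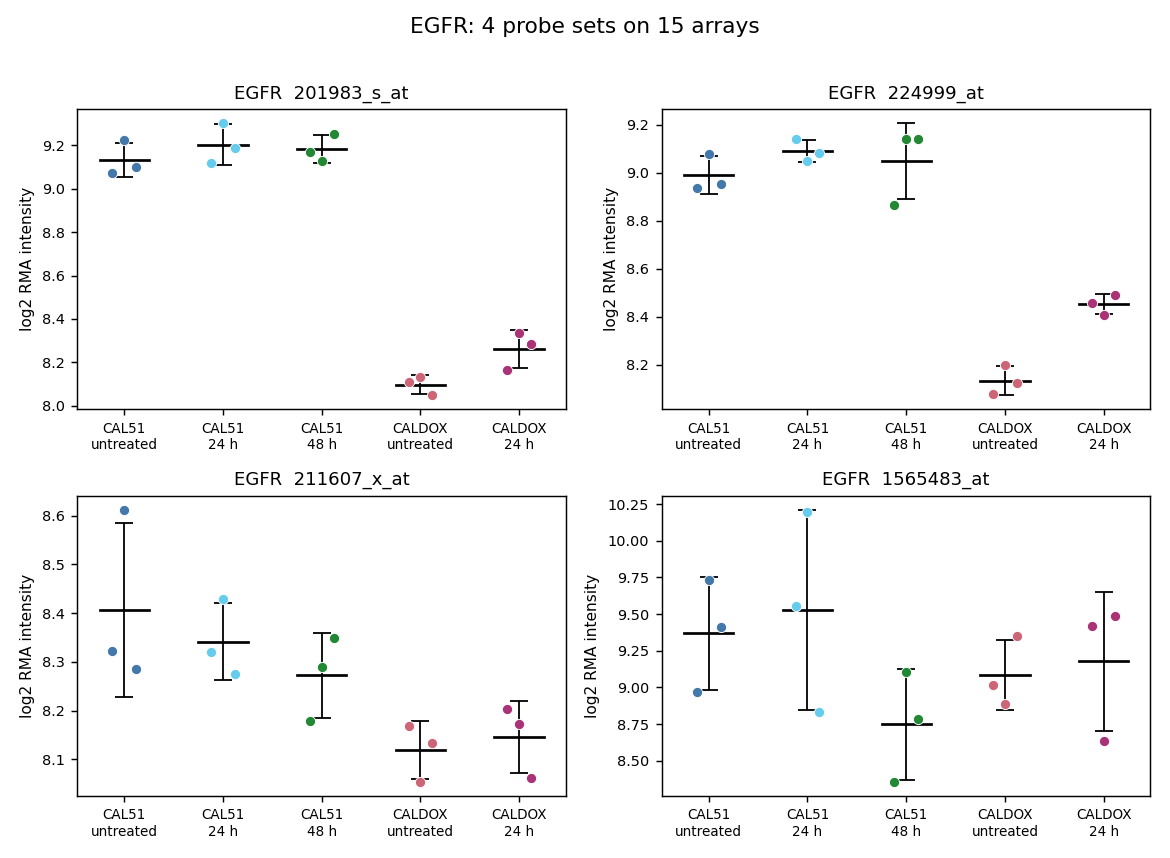
Log2 intensity of 4 EGFR probe sets (vertical axes, each with its own scale) in the 5 groups, with points for arrays, a line for the mean and bars for the SD over 3 arrays. On 201983_s_at and 224999_at all CALDOX arrays lie below all CAL51 arrays, on 211607_x_at the line difference is -0.29, and on 1565483_at the groups overlap.

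ERBB3, the docking receptor for PI3K, differed the other way. On its brightest probe set, 226213_at, untreated CAL51 read 8.12, 8.14 and 8.09, and untreated CALDOX 9.07, 9.12 and 9.08. After 24 h the arrays read 8.03, 8.19 and 8.08 in CAL51 and 8.81, 8.74 and 8.79 in CALDOX, and CAL51 at 48 h read 8.36, 8.40 and 8.54. The CALDOX arrays were above all CAL51 arrays, the untreated CALDOX arrays were above the treated ones, and the 48 h CAL51 arrays were above the earlier CAL51 arrays. ERBB3 was 1.96-fold higher in untreated CALDOX, at 0.97 ± 0.07 (adjusted p = 7.7e-09, limma), and 0.68 ± 0.07 higher between the treated lines (adjusted p = 7e-07, limma).

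With doxorubicin this probe set rose in CAL51 at 48 h and fell in CALDOX at 24 h, a comparison of unlike times and doses. In CAL51 the change was 0.32 ± 0.07 at 48 h over untreated (adjusted p = 0.003, limma) and 0.33 ± 0.07 at 48 h over 24 h (adjusted p = 0.0053, limma), but at 24 h it differed by -0.02. In CALDOX it fell by 0.31 at 24 h (± 0.07, adjusted p = 0.0077, limma). The 24 h responses were not shown to differ: their difference was not called on any ERBB3 probe set (lowest adjusted p = 0.20, limma). Of the other 4 probe sets, 202454_s_at read 7.11, 7.32 and 7.40 in untreated CAL51 and 8.04, 8.12 and 8.07 in untreated CALDOX. It was 0.80 ± 0.09 higher in untreated CALDOX (adjusted p = 2.4e-06, limma) and 0.55 ± 0.09 higher between the treated lines (adjusted p = 0.00014, limma). It fell by 0.30 in treated CALDOX (adjusted p = 0.0495, limma), and that call was lost on leaving out any of 10 of the 15 arrays in turn (adjusted p up to 0.16). The probe set 1563253_s_at was 0.31 ± 0.07 higher in untreated CALDOX (adjusted p = 0.0064, limma), while 1563252_at and 215638_at were not called in any comparison. At 48 h in CAL51, 226213_at was the only ERBB3 probe set called, and with the mean of the gene's probe sets in its place the change was not called (adjusted p = 0.46), nor were those for 48 h over 24 h and in treated CALDOX (adjusted p up to 0.15). The call for 48 h over 24 h was also lost when only the arrays compared were fitted.

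ERBB2, the gene for HER2, had its brightest probe set, 216836_s_at, close to 10 in every group. It read 9.96, 10.14 and 10.00 in untreated CAL51 and 10.04, 10.16 and 10.07 in untreated CALDOX. In CAL51 it read 9.87, 9.87 and 9.89 at 24 h and 9.88, 9.95 and 9.94 at 48 h, and in treated CALDOX 9.89, 9.87 and 9.88. Both treated 24 h groups lay just below their own untreated group without overlap, and none of these differences was called. They were -0.15 ± 0.06 in CAL51 (adjusted p = 0.17, limma) and -0.21 ± 0.06 in CALDOX (adjusted p = 0.071, limma), and the lines differed by 0.05 untreated, with a 95% interval of -0.08 to 0.19. A second ERBB2 probe set, 210930_s_at, read 7.69, 7.67 and 7.75 in untreated CAL51, 7.63, 7.70 and 7.59 at 24 h, and 7.22, 7.31 and 7.43 at 48 h. The 48 h arrays were below all the others, and the 24 h arrays overlapped the untreated ones. It fell by 0.38 at 48 h over untreated (± 0.07, adjusted p = 0.0013, limma), and by 0.32 over 24 h (adjusted p = 0.013, limma). The second call ended without CAL51 48 h replicate 1 (adjusted p = 0.074) and when only the arrays compared were fitted (adjusted p = 0.10). The third ERBB2 probe set, 234354_x_at, was not called.

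Among the ligands, EREG, which encodes epiregulin, was higher in treated CALDOX on 1 of its 2 probe sets. The probe set 205767_at read 4.56, 4.21 and 4.75 in untreated CAL51, 4.63, 4.44 and 4.74 at 24 h, and 4.68, 4.76 and 4.53 at 48 h. Untreated CALDOX read 4.75, 4.74 and 4.98, and treated CALDOX 5.53, 5.78 and 5.73. Treated CALDOX was above every other array, and the other 4 groups overlapped in turn. These readings are low: the mean over all arrays was 4.86, at percentile 13.6 of all probe sets. The change in CALDOX at 24 h was 0.86 ± 0.12 (adjusted p = 0.00032, limma), which is 1.81-fold, and treated CALDOX stood 1.08 ± 0.12 above treated CAL51 (adjusted p = 4e-06, limma). The untreated lines differed by 0.32 ± 0.12 (adjusted p = 0.089, limma). The 24 h response of CALDOX exceeded that of CAL51, which was 0.09, by 0.76 ± 0.17 (adjusted p = 0.0472, limma). That call was lost in 3 other settings and when any of 12 of the 15 arrays was left out in turn (adjusted p up to 0.13). The other EREG probe set, 1569583_at, read 6.22 to 6.65 over all arrays and was not called in any comparison, and the pair correlated at 0.06 over the 15 arrays.

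**Figure D2:**
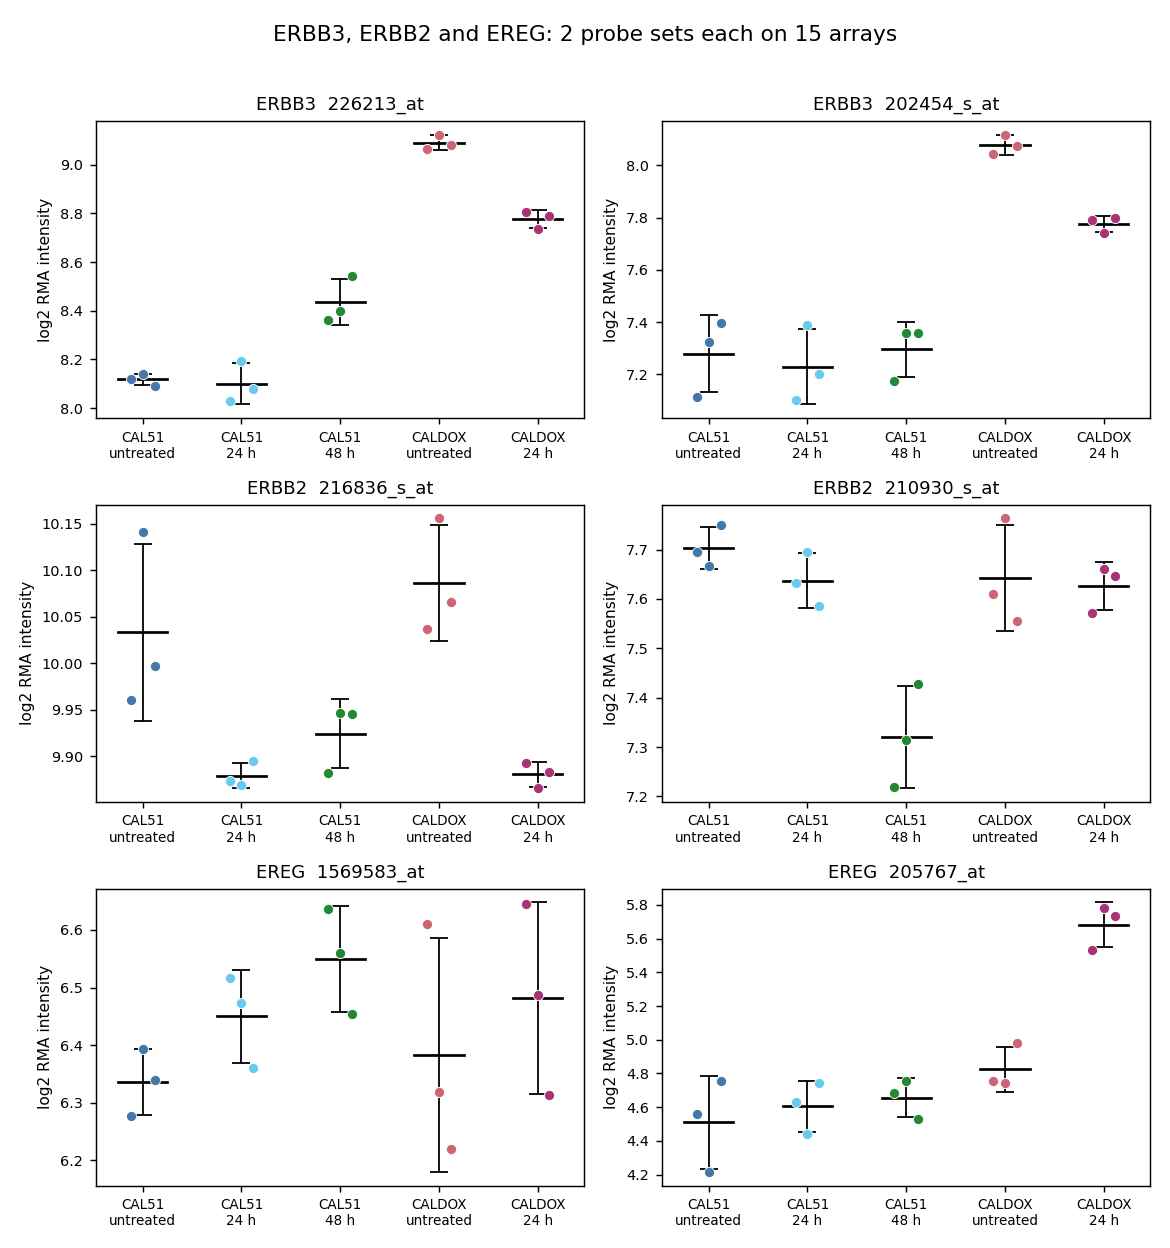
Log2 intensity of 2 probe sets each of ERBB3, ERBB2 and EREG (vertical axes, each with its own scale) in the 5 groups, with points for arrays, a line for the mean and bars for the SD over 3 arrays. ERBB3 is highest in untreated CALDOX on both probe sets, ERBB2 210930_s_at is lowest in CAL51 at 48 h, and EREG 205767_at is highest in treated CALDOX.

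HBEGF, TGFA and BTC encode heparin-binding EGF-like growth factor, transforming growth factor alpha and betacellulin, and no probe set of these genes was called in any of the 7 comparisons (limma). For HBEGF, 28 tests of 4 probe sets gave fold changes of -0.22 to 0.24, a lowest adjusted p of 0.10 and 3 with an unadjusted p under 0.05. The brightest HBEGF probe set, 203821_at, read 7.45, 7.45 and 7.46 in untreated CAL51 and 7.46, 7.46 and 7.36 in untreated CALDOX. For TGFA, 21 tests of 3 probe sets gave -0.10 to 0.14, a lowest adjusted p of 0.36 and 0 with an unadjusted p under 0.05. For BTC, 14 tests of 2 probe sets gave -0.16 to 0.19, a lowest adjusted p of 0.15 and 1 with an unadjusted p under 0.05. The 95% intervals reached from -0.54 to 0.42 for HBEGF, from -0.30 to 0.32 for TGFA and from -0.41 to 0.37 for BTC, so smaller changes were not excluded. BTC read 3.38 to 3.86 over all arrays.

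Counted over probe sets, 8 of the 28 were called in at least 1 of the 7 comparisons and 20 in none. The share of all probe sets called in at least 1 was not counted, so the 8 cannot be set against it. The comparisons share arrays, so their counts are given side by side and not combined. In CAL51 at 24 h, 0 of 28 were called (limma), where 8.09% of all probe sets were called, 5.45% higher and 2.64% lower. There 1 of the 28 had an unadjusted p under 0.05, a share not counted over all probe sets. At 48 h, 2 of 28 were called, 1 higher and 1 lower, against 14.5% of all, 6.99% higher and 7.53% lower. For 48 h over 24 h, 2 of 28 were called, 1 each way, against 6.51% of all, 2.25% higher and 4.27% lower. Untreated CALDOX against untreated CAL51 had 6 called, 3 higher and 3 lower, against 19.1% of all, 9.32% higher and 9.75% lower. In CALDOX at 24 h, 4 were called, 2 higher and 2 lower, against 5.89% of all, 3.17% higher and 2.72% lower. The difference of the 24 h responses had 1 called, higher, against 0.884% of all, 0.335% higher and 0.549% lower. The treated lines had 5 called, 3 higher and 2 lower, against 21.8% of all, 9.37% higher and 12.4% lower. The median log2 fold change over the 28 was 0.002 between the untreated lines, beside -0.01 over all probe sets, and 0.03 between the treated lines, beside 0.01. These shares and medians describe the probe sets, and several probe sets report on 1 gene.

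Taking only the lead probe set of each gene, its brightest by the mean over all arrays, ERBB3 was the only one of the 7 measured members called in any comparison. Between the untreated lines this was 1 of 7 higher, against 23.7% of all 19775 genes called, 13.1% higher and 10.6% lower. Between the treated lines it was 1 of 7 higher, against 25.2%, 13.0% higher and 12.2% lower. In CALDOX at 24 h it was 1 of 7 lower, against 8.31%, 3.92% higher and 4.39% lower. In CAL51 it was 0 of 7 at 24 h (limma), against 8.56% of genes, 5.04% higher and 3.51% lower. It was 1 of 7 higher at 48 h, against 19.0%, 9.29% higher and 9.67% lower, and 1 of 7 higher for 48 h over 24 h, against 7.75%, 3.48% higher and 4.27% lower. The difference of the 24 h responses had 0 of 7 (limma), against 1.02%, 0.420% higher and 0.597% lower. In CAL51 at 24 h, 1 of 7 had an unadjusted p under 0.05, beside 4130 of all 19775 genes. For the difference of responses this was 1 of 7, beside 2043 of 19775. The lead rule picks for EGFR, ERBB2 and EREG probe sets that were not called in any comparison, so these counts differ from those over all probe sets. With the mean of a gene's probe sets in place of the lead, 2 members were called between the untreated lines and 3 between the treated lines.

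**Figure D3:**
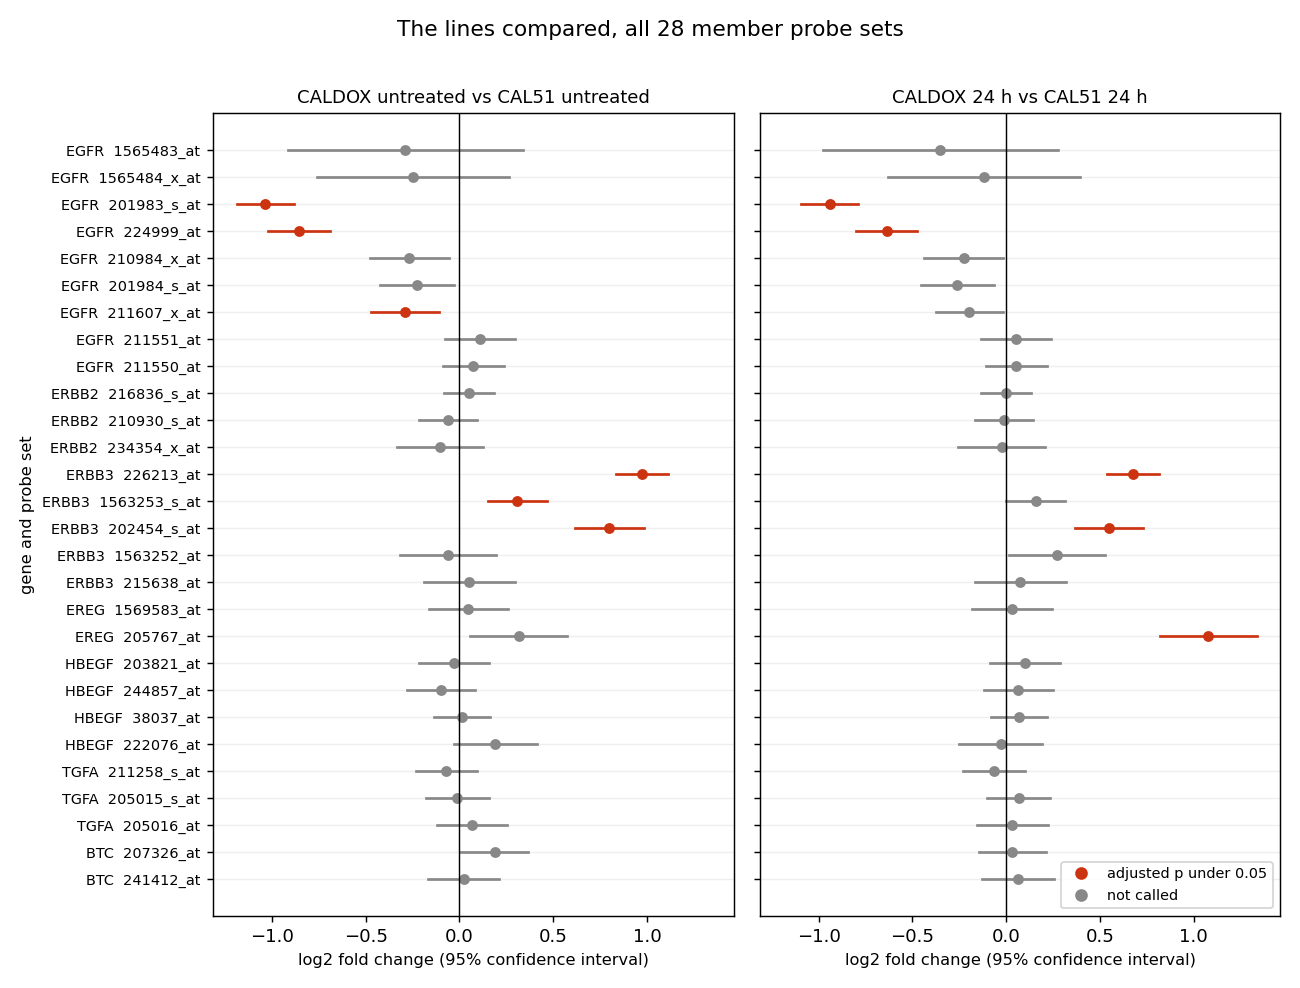
Log2 fold change (horizontal axis) of all 28 probe sets in CALDOX over CAL51, untreated at left and after 24 h of drug at right, with 95% confidence intervals and the called probe sets in red. EGFR 201983_s_at and 224999_at lie at -1.04 and -0.86 untreated and ERBB3 226213_at at 0.97, while ligand probe sets other than EREG 205767_at lie near 0.

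The other receptors and ligands of the family were followed on their lead probe sets. Of 6 measured genes, ERBB4, the fourth receptor of the family and a neuregulin receptor, was called in both comparisons of the lines. This was 1 of 6 lower in each, against 10.6% of all genes lower untreated and 12.2% between the treated lines. ERBB4 read 9.10 ± 0.01 in untreated CAL51 and 8.24 ± 0.12 in untreated CALDOX. It was lower by -0.86 ± 0.08 untreated (adjusted p = 2.4e-07, limma) and by -0.75 ± 0.08 between the treated lines (adjusted p = 1.3e-06, limma), and 3 of its 4 probe sets were lower in each. On their lead probe sets, EGF and the neuregulin genes NRG1, NRG2, NRG3 and NRG4 were not called in any comparison. Any other probe sets of these genes were not examined here. EPGN was not analysed here.

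Among 11 measured genes linked to ligand release, with the inhibitor TIMP3 among them, RHBDF2 and ADAM17 were higher in untreated CALDOX. These 2 were called higher and 0 lower, against 13.1% and 10.6% of all genes, and the median was 0.08 beside 0.00 over all genes. RHBDF2, an inactive rhomboid that carries ADAM17 to the cell surface, was 0.87 ± 0.09 higher (adjusted p = 8.7e-07, limma). It read 8.31 ± 0.15 in untreated CAL51 and 9.18 ± 0.10 in untreated CALDOX. ADAM17, the main protease of these ligands, was 0.19 ± 0.06 higher (adjusted p = 0.035, limma), a call that was lost without any of 5 arrays and in 4 other settings. It was called on 1 of its 3 probe sets, which ranged from -0.009 to 0.19. In CALDOX at 24 h, RHBDF1, the related rhomboid, rose by 0.41 ± 0.07 (adjusted p = 0.0011, limma) and RHBDF2 by 0.40 ± 0.09 (adjusted p = 0.0091, limma), with 2 of 11 called, both higher, against 8.31% of all genes. The RHBDF2 call was lost without treated CALDOX replicate 2 (adjusted p = 0.056). In CAL51, 1 of 11 was called at 24 h and 3 at 48 h, all higher, against 8.56% and 19.0% of all genes, with list medians of -0.02 and 0.05. RHBDF2 rose by 0.44 ± 0.09 at 24 h (adjusted p = 0.0036, limma) and RHBDF1 by 0.38 ± 0.07 at 48 h (adjusted p = 0.00074, limma), the latter on 1 of its 2 probe sets.

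Genes that inhibit ERBB receptors or act on their turnover, not all in the same direction, differed between the lines in both directions. Of 18 measured inhibitors and turnover genes, 3 were higher and 6 lower in untreated CALDOX, against 13.1% and 10.6% of all genes, with a median of -0.04 beside 0.003. ERRFI1, also called MIG6, which binds and inhibits the EGFR kinase, read 12.08 ± 0.07 in untreated CAL51 and 10.92 ± 0.09 in untreated CALDOX. It was lower by -1.16 ± 0.07 (adjusted p = 1.3e-09, limma), which is 2.24-fold, and by -1.16 ± 0.07 between the treated lines (adjusted p = 1.4e-09, limma). SOCS3, a suppressor of cytokine signalling, differed by -0.83 ± 0.08 (adjusted p = 1.2e-06, limma) and CBLB, a ubiquitin ligase for active receptors, by -0.61 ± 0.10 (adjusted p = 0.00024, limma). The calls held for 2 of 4 SOCS3 and 2 of 3 CBLB probe sets. LRIG1, which promotes receptor degradation, was 0.39 ± 0.08 higher (adjusted p = 0.0021, limma). It was called on 2 of its 4 probe sets there and on 0 between the treated lines. With doxorubicin, the calls were 2 of 18 in CAL51 at 24 h, 5 at 48 h and 2 in CALDOX at 24 h, against 8.56%, 19.0% and 8.31% of all genes. ERRFI1 was not called in those comparisons.

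Downstream of the receptors, 21 of 29 listed adaptor and kinase genes were measured. In untreated CALDOX, 4 were higher and 4 lower, against 13.1% and 10.6% of all genes, with a median of 0.02. AKT1, a kinase activated by PI3K, was lower by -0.80 ± 0.07 (adjusted p = 1.9e-07, limma) and PIK3CB, a PI3K catalytic subunit, by -0.47 ± 0.08 (adjusted p = 0.00017, limma). PIK3R3, a PI3K regulatory subunit, rose with drug in each line, by 0.97 ± 0.06 at 24 h and 1.71 ± 0.06 at 48 h in CAL51, and by 0.78 ± 0.06 at 24 h in CALDOX (adjusted p = 4.1e-08, 2.4e-11 and 1.1e-06, limma). Of the 21 genes, 3, 4 and 3 were called in those comparisons, against 8.56%, 19.0% and 8.31% of all genes. The median over the list was between -0.05 and 0.01 in each of them, beside -0.03 to -0.01 over all genes.

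Target and feedback genes of ERK signalling moved in both directions. Of 17 measured, 8 were called in CAL51 at 24 h, 4 each way, and 11 at 48 h, 7 higher and 4 lower. In CALDOX at 24 h, 10 were called, 5 each way, and between the untreated lines 7 were, 4 higher and 3 lower. The shares of all genes called in these comparisons were 8.56%, 19.0%, 8.31% and 23.7%. The medians over the list were 0.10, 0.08, -0.07 and -0.11 in that order, beside -0.03, -0.02, -0.01 and 0.003 over all genes. DUSP5, a nuclear phosphatase for ERK, read 9.17 ± 0.01 in untreated CAL51 and 11.10 ± 0.03 in untreated CALDOX. It was 1.93 ± 0.07 higher in untreated CALDOX (adjusted p = 1.1e-12, limma), and it rose in CAL51 by 0.64 ± 0.07 at 24 h (adjusted p = 7.5e-06, limma) and by 1.04 ± 0.07 at 48 h (adjusted p = 1.5e-08, limma). FOSL1, an AP-1 subunit, rose by 1.05 ± 0.08 in CAL51 at 24 h (adjusted p = 2.1e-07, limma) and by 0.88 ± 0.08 in CALDOX (adjusted p = 2.9e-06, limma). DUSP6, a cytoplasmic phosphatase for ERK, fell by 0.65 in treated CALDOX (± 0.09, adjusted p = 0.00022, limma), and IER3, an immediate early gene, was -0.62 ± 0.07 lower in untreated CALDOX (adjusted p = 2.4e-06, limma). On lead probe sets, the difference of the 24 h responses was called for 0 genes of the 5 pathway lists (limma), against 1.02% of all genes. An unadjusted p under 0.05 was found for 5 of the 17 ERK targets, 4 of the 21 downstream genes and 3 of the 18 inhibitors and turnover genes. It was found for 1 of the 11 shedding genes, 0 of the 6 other receptors and ligands, and 2043 of all 19775 genes. Over all their probe sets, EGR1, an immediate early transcription factor, and DUSP6 each had 2 of 3 called lower in that contrast, by up to -0.82 and -0.71. Of all probe sets, 0.549% were called lower there. Probe sets other than the lead were read only for genes eligible to be named.

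**Figure D4:**
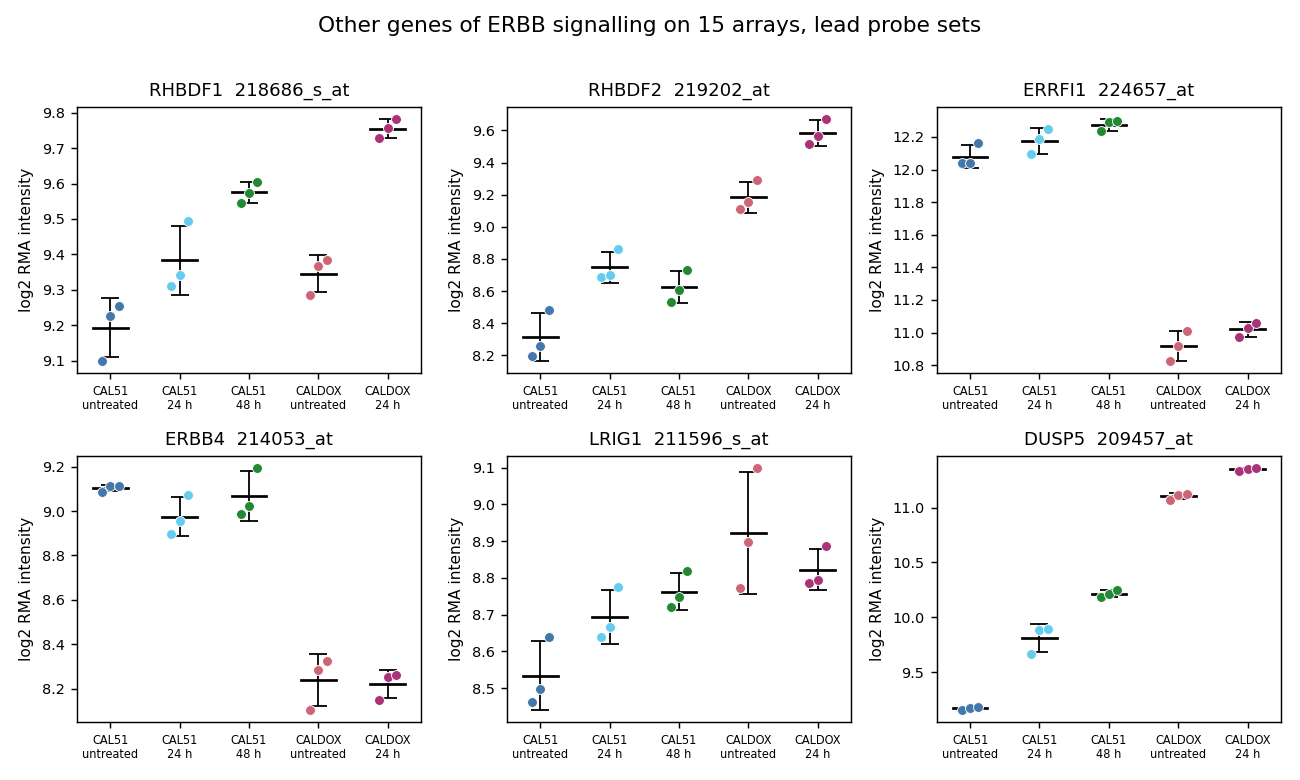
Log2 intensity of the lead probe sets of RHBDF1, RHBDF2, ERRFI1, ERBB4, LRIG1 and DUSP5 (vertical axes, each with its own scale) in the 5 groups, with points for arrays, drawn in order of value, a line for the mean and bars for the SD over 3 arrays. ERRFI1 and ERBB4 are lower in all CALDOX arrays, and RHBDF2 and DUSP5 are higher in them.

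By Pearson correlation of the lead probe set with ERBB3 226213_at over the 15 arrays, the most alike genes were GAL3ST1 (0.980), KLHDC9 (0.979) and STK38L (0.978). For EGFR 201983_s_at they were SH3BP4 (0.995), MYL9 (0.991) and SCD5 (0.989), for 224999_at ACSL1 (0.985), TPM1 (0.984) and ANXA1 (0.981), and for EREG 205767_at CYP27A1 (0.935), MSLN (0.928) and WNT7A (0.926). The arrays share 5 groups, so these values mostly follow the group levels and are a description.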

How the data were processed

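Expression was measured in 15 cultures on Affymetrix arrays. The authors deposited a table of 54675 probe sets that the submitters' processing notes tie to RMA (background correction, quantile normalization, probe summary), with no version given. The log base of the deposited values is stated nowhere, and log2 was inferred because they span 3.08 to 14.76. Scanner files were not used here, so the number of arrays, 3 a group, limits the precision.

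The 62 control probe sets were left out. Of the other 54613, 41091 carried 1 gene symbol, 1801 several and 11721 none in the platform annotation. limma 3.58.1 in R 4.3.3 (lmFit, eBayes) fitted a mean for each group to all 15 arrays, with 10 residual and 6.27 prior degrees of freedom, and two-sided p-values were adjusted within each of 7 contrasts. Treated CALDOX against treated CAL51 was added after the data were seen. The fit was run on simulated data drawn independently for each array, which checks the code and not whether the model holds for these arrays. Each gene's lead probe set was its brightest, and members were reported on every probe set. Up to 4 called genes with the largest change were eligible to be named from each pathway list and contrast, with up to 3 genes most alike each called member, and CDKN1A, MDM2, ABCB1 and TOP2A served as label checks. The members and lists were chosen with earlier results of these data known.

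Replicate numbers were checked as pairs: correlations of deviations between same-numbered arrays ranged from -0.40 to 0.43 and 9 of 30 were over 0.1, so they were not treated as pairs. The alternatives tried were repeated normalization, median centring, a filter on dim probe sets, other rules for a gene's probe sets, fits of only the arrays compared, other variance models, array weights, the replicate number as a block, and each array left out.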

Additional observations from a re-analysis of the deposited data

Results flagged for a closer look

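EREG, the epiregulin gene, drew attention on the probe set 205767_at because the lines' responses at 24 h differed in a direct test. CALDOX exceeded CAL51 by 0.76 (adjusted p = 0.0472, limma), with a response of 0.86 in CALDOX at 4 µM and of 0.09 in CAL51 at 0.4 µM. The call was lost in 3 other settings and when any of 12 of the 15 arrays was left out in turn (adjusted p up to 0.13). All 3 treated CALDOX arrays were above all 3 untreated ones. The second EREG probe set, 1569583_at, gave a difference of -0.01 and was not called. The doses differ between the lines, so dose and line cannot be told apart.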

How the results depend on the processing

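Of 20 called results on member probe sets, 12 stayed called under all 9 alternatives and with each of the 15 arrays left out, and of 44 uncalled results on members' lead probe sets, 7 were called in at least 1 of these. No called result changed sign. Of 74 called results on the pathway genes eligible to be named, 54 stayed called under the 9 alternatives and 50 also with each array left out.

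With only the arrays of the groups compared, 808 genes and 2365 probe sets were called in CAL51 at 24 h (1692 and 4420 in all arrays), and 343 and 855 for 48 h over 24 h (1533 and 3557), with 0 member genes and 0 member probe sets. Fewer arrays enter that fit. Array weights called 3791 genes and 9969 probe sets at 24 h with 1 member probe set, 3158 and 7701 for 48 h over 24 h, 3219 and 7225 in CALDOX at 24 h, 979 and 2639 for the difference of responses, and 8382 and 21128 between the treated lines with 10 member probe sets. The cause was not tested. The mean of a gene's probe sets gave 0 member genes at 48 h and 0 for 48 h over 24 h, 2 between the untreated lines, 3 between the treated lines, and 316 genes for the difference. In CALDOX at 24 h, 2 member genes were called with dim probe sets removed, 1 probe set per gene, a trended robust variance or array weights, the second being ERBB2 216836_s_at. For the difference of responses, the dim filter gave 379 genes and 784 probe sets, and the trended robust variance 430 and 911. The only member probe set called there, EREG 205767_at, was lost (0 called) with repeated quantile normalization, median centring, only the arrays compared, and the dim filter, which removes it.

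Leaving out arrays in turn gave, for 48 h over 24 h, 903 to 1567 genes, 2032 to 3928 probe sets, 1 to 2 member genes and 1 to 4 member probe sets. Between the untreated lines it gave 1 to 2 member genes. In CALDOX at 24 h it gave 1009 to 1897 genes, 1990 to 3798 probe sets, 1 to 2 member genes and 2 to 4 member probe sets. For the difference it gave 108 to 252 genes, 271 to 661 probe sets and 0 to 1 member probe sets.

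With the replicate number as a block, 4128 probe sets were called in CAL51 at 24 h, 10146 between the untreated lines and 2926 in CALDOX at 24 h. None of the 20 called member results was lost and 0 of the uncalled lead results gained a call. Of the 15 arrays, 5 correlated best with their own number. Lead probe sets of 15 genes of unrelated tissues, not thought to be expressed in a breast line, had means of 4.46 to 8.59, with a median of 6.66. Every ERBB3, EREG, HBEGF and TGFA probe set had a mean inside that range, and the BTC probe sets lay below it. Above it were 5 member probe sets: EGFR 1565483_at, 1565484_x_at, 201983_s_at and 224999_at, and ERBB2 216836_s_at. The other EGFR and ERBB2 probe sets lay inside it, with 211607_x_at at 8.26 and 210930_s_at at 7.59. In untreated CALDOX, 201983_s_at and 224999_at read 8.10 and 8.13, inside the range, and ERBB3 226213_at read 9.09, above it. Detection calls were not used here, so whether the readings of these genes lie above background was not tested.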
